A study of Mus musculus with 9 samples.

Results

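Spliced long intergenic noncoding RNAs (lincRNAs) were described in the livers of C57BL/6 mice that were wild type (WT), carried an inducible YAP transgene (YAP), or carried the transgene together with a knockout of Lsd1 (YAP_Lsd1ko), with 3 libraries in each group. The members were the genes of GENCODE type lincRNA, without H19 and Eprn, that had at least 100 uniquely mapped reads, summed over all 9 libraries, on annotated splice junctions belonging to that gene alone. The rule found 23 genes among 15493 genes with at least 1 such read. GENCODE M21 lists 5854 lincRNA genes, 5537 of them with an intron, and 183 had at least 1 such read. The summed reads over all groups chose the members, so their levels are a description and not a finding: the members were chosen by read count.

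Every mouse, WT included, was given an AAV8 virus carrying Cre recombinase (AAV8-ApoE/ATT1-Cre) by intraperitoneal injection, and doxycycline at 30 mg/L in the drinking water for 14 days turned on the transgene. The names of the promoter elements in the virus are those of genes active in hepatocytes, and whole liver also holds other cells. Age and sex are not in the labels, and no group carried the Lsd1 knockout without YAP. Whether the 3 libraries of a group are 3 animals is not stated in the labels, so the p-values measure only the spread between libraries, which may be technical.

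LincRNAs are transcripts annotated mostly outside protein-coding genes, are spliced and mostly capped like messenger RNA, and are not thought to be translated for the most part. Some act on chromatin or neighbouring genes, some host small nucleolar RNAs (snoRNAs) or microRNAs in their introns, and for many no role is known. In liver, Meg3, a maternally expressed imprinted RNA, Pvt1, the neighbour of Myc, and Lncpint, a p53-induced RNA, have been studied in hepatocyte growth, fibrosis or liver cancer. YAP drives growth genes together with TEAD factors when Hippo signalling is low. LSD1, the product of Kdm1a, removes methyl groups from histones.

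A junction read is a read that spans the place where an intron was removed, so each member is measured through the sequence made when its exons are joined. The joins below are those of the best-read junction of the 4 members that passed the test of YAP against WT, followed by Pvt1, Meg3 and Snhg12, to which later results also refer. Each runs 5′ to 3′ on the strand of the gene, with the last 30 bases of the upstream exon in lower case and the first 30 bases of the downstream exon in capitals, as in the GENCODE M21 transcripts (GRCm38/mm10).
Gm16548: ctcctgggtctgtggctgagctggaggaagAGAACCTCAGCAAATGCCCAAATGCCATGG
2310001H17Rik: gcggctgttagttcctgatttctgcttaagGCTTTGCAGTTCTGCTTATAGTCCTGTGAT
1810008I18Rik: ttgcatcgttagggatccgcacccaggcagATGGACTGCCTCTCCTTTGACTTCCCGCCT
2900076A07Rik: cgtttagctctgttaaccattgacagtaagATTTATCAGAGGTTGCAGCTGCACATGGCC
Pvt1: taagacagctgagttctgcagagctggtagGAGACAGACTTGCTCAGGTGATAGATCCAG
Meg3: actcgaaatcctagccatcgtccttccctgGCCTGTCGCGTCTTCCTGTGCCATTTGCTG
Snhg12: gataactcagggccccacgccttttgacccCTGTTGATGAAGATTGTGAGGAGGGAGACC
The introns removed at these joins are chr1:164149133-164149319 (minus strand, 187 bases), chr6:129232948-129233063 (minus, 116 bases), chr7:65804333-65805813 (plus, 1481 bases), chr7:81529528-81531210 (plus, 1683 bases), chr15:62242302-62242433 (plus, 132 bases), chr12:109549372-109549478 (plus, 107 bases) and chr4:132308908-132309837 (plus, 930 bases), in the same order. For 1810008I18Rik this was the only junction of the gene that was read, and for Gm16548 it carried 86.0% of the gene's reads.

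The 23 members took 859 to 1410 reads in a library, or 0.0132% to 0.0185% of the reads on gene junctions, which numbered 6516711 to 9267028. AW112010 alone took 34.1% of the members' reads. Levels are given as CPM, the reads of a gene per 1000000 gene junction reads, with library sizes scaled by edgeR's TMM factors. Yap1 stood at 17.4 to 19.8 CPM in WT, 66.8 to 78.8 in YAP and 30.4 to 47.7 in YAP_Lsd1ko, and was lower in YAP_Lsd1ko than in YAP (log2 fold change -0.98, adjusted p = 0.0213). Kdm1a stood at 15.8, 35.4 and 25.3 CPM in YAP_Lsd1ko against 36.7 to 46.2 in YAP. The library labelled YAP_Lsd1ko replicate 2 was within the WT range of 30.1 to 38.3. Kdm1a did not pass in YAP_Lsd1ko against YAP (log2 fold change -0.72, edgeR adjusted p = 0.186) or against WT (-0.39, adjusted p = 0.539). Hepatocyte markers were read in every library, with 10 of 10 listed markers tested. Their summed level was 179988 to 187994 CPM in WT, 154959 to 224236 in YAP and 125823 to 178455 in YAP_Lsd1ko, where replicate 2 was the lowest of all libraries. In YAP against WT 2 of these markers fell and 1 rose (edgeR), with a median log2 fold change of -0.75 and 2 of 10 above 0. Multi-mapped junction reads numbered 1307895 to 1322428 in the YAP libraries, 3403801 to 17283950 in WT and 2701326 to 10158036 in YAP_Lsd1ko, and only uniquely mapped reads were used.

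The members lay on 14 chromosomes, and 94 of their junctions were read, 1 to 12 per member with a median of 3, across introns of 87 to 68946 bases. Of the lincRNA genes read at all, 116 had 1 to 9 reads in total and 11 of the 23 members had at most 200. The members just inside the threshold were Gm19619 with 108 reads, Gm19705 with 107 and 2900076A07Rik with 106. Just outside it were 1700061I17Rik with 99, C730036E19Rik with 86 and 5033406O09Rik with 70. RefSeq lists 20 of the members as long noncoding RNAs and 3 as protein-coding, namely 1810058I24Rik, Gm20939 and D930016D06Rik, the last under the name Thoc2l.

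Because members have different numbers of junctions, their levels were ordered by the best-read junction of each, a quantity that does not grow with the number of introns. AW112010 (chr19:11047612-11055808, minus strand), an RNA known from innate immune cells and reported to be translated there, was highest, at a mean of 47.4 CPM over the 9 libraries and a range of 27.5 to 63.8. Its lowest library was above the highest library of every other member on this scale. The next were 1810008I18Rik at 9.95 CPM, the snoRNA host Snhg6 at 9.82 and 1810058I24Rik at 8.69, whose ranges overlapped each other. 1700020I14Rik, known as Cyrano or Oip5os1 and known for binding the microRNA miR-7, followed at 4.45 CPM and Gm8883 at 4.19. Ftx, a long gene of the X-inactivation centre that hosts microRNAs, was last at 0.487 CPM, next to Meg3 at 0.652, with ranges that overlapped.

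**Figure D1:**
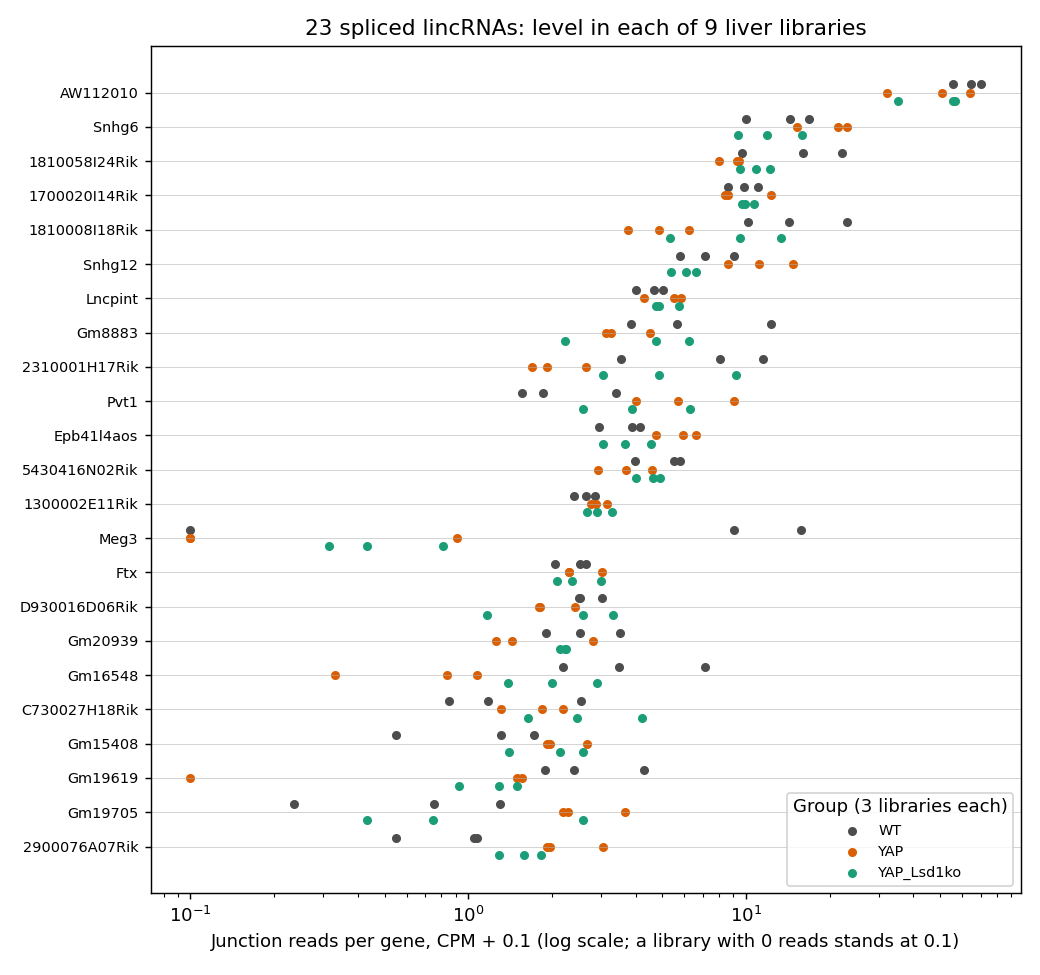
Level of each of the 23 members in each of the 9 libraries, as CPM of reads summed over the gene's junctions plus 0.1 on a log axis, 1 row per gene and 1 point per library, coloured by group (3 libraries each). AW112010 stands apart at 32.2 to 70.0 CPM, and Meg3 and Gm19619 have libraries with 0 reads, drawn at 0.1.

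Comparison of YAP with WT asks which members differ in livers with the active transgene. Of the 22 members tested, 4 passed (edgeR quasi-likelihood test, adjusted p under 0.05 over 10897 genes), beside 17.4% of all genes tested. 3 of them were lower in YAP, beside 10% of all genes, and 1 was higher, beside 7.44%. The share of members that passed, 18.2%, was close to that of all genes. 1810008I18Rik, 2310001H17Rik and Gm16548 fell, and 2900076A07Rik rose. Gm16548 and 2900076A07Rik reached the threshold for members only with the reads of the group where they were higher, WT and YAP. The count of 4 is thus a description only. No role in liver is given here for these 4 RNAs, which carry only database names.

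Gm16548 (chr1:164148591-164152217, minus strand) had 6.99, 2.10 and 3.38 CPM in WT replicates 1 to 3, 0.737, 0.233 and 0.973 in YAP, against 1.90, 2.81 and 1.29 in YAP_Lsd1ko. All YAP libraries were below all WT libraries and below all YAP_Lsd1ko libraries, and WT replicate 1 was well above the other WT libraries. It fell 6.28-fold in YAP (log2 fold change -2.65, SE 0.60, edgeR adjusted p = 0.0178), on 82 reads in all WT libraries and 16 in all YAP libraries. YAP replicate 2 had 2 of these reads. With 45 reads in all YAP_Lsd1ko libraries, Gm16548 would not have reached the threshold for members without its WT reads. As the WT libraries brought it past the threshold, its fall is a description only.

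2310001H17Rik (chr6:129208412-129238725, minus strand) had 11.4, 3.44 and 7.97 CPM in WT, 1.60, 2.56 and 1.82 in YAP, against 2.96, 9.10 and 4.74 in YAP_Lsd1ko. The YAP libraries lay close together below every other library, while WT and YAP_Lsd1ko overlapped. It fell 3.77-fold in YAP (log2 fold change -1.92, SE 0.52, edgeR adjusted p = 0.0358).

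1810008I18Rik (chr7:65803111-65806449, plus strand) had 22.9, 10.04 and 14.2 CPM in WT, 6.14, 4.77 and 3.65 in YAP, against 5.22, 13.2 and 9.37 in YAP_Lsd1ko. YAP and WT did not overlap, and YAP_Lsd1ko replicate 1 lay within the YAP range. It fell 3.23-fold in YAP (log2 fold change -1.69, SE 0.40, edgeR adjusted p = 0.0216).

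2900076A07Rik (chr7:81523550-81531498, plus strand) had 0.975, 0.449 and 0.946 CPM in WT, 2.95, 1.86 and 1.82 in YAP, against 1.19, 1.49 and 1.72 in YAP_Lsd1ko. All YAP libraries were above all YAP_Lsd1ko libraries, and these were above all WT libraries. It rose 2.76-fold in YAP (log2 fold change 1.46, SE 0.41, edgeR adjusted p = 0.0377), on 16 reads in all WT libraries and 55 in all YAP libraries. With 35 reads in all YAP_Lsd1ko libraries, 2900076A07Rik would not have reached the threshold for members without its YAP reads. Its rise is thus a description only. The intron of its best-read junction holds the hairpin of the microRNA Mir1839, and its mature product in RefSeq (GRCm38.p6, chr7:81529919-81529940, plus strand) is shown with the seed, bases 2 to 8, in capitals.
mmu-miR-1839-5p: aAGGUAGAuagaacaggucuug
Mature microRNAs were not measured by these libraries.

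Each of the 4 lost significance with some library left out: the count of members passing was 1 without WT replicate 1 (Meg3, of which that library had 0 reads, and none of the 4), 0 without WT replicate 3 and 5 without WT replicate 2. It was 1 when YAP replicate 1 was left out (1810008I18Rik), 0 for YAP replicate 2 and 1 for YAP replicate 3 (Gm16548). The share of all genes passing also fell, from 17.4% to between 6.74% and 10.8% in all of these but the case of WT replicate 2, where it was 15.4%.

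**Figure D2:**
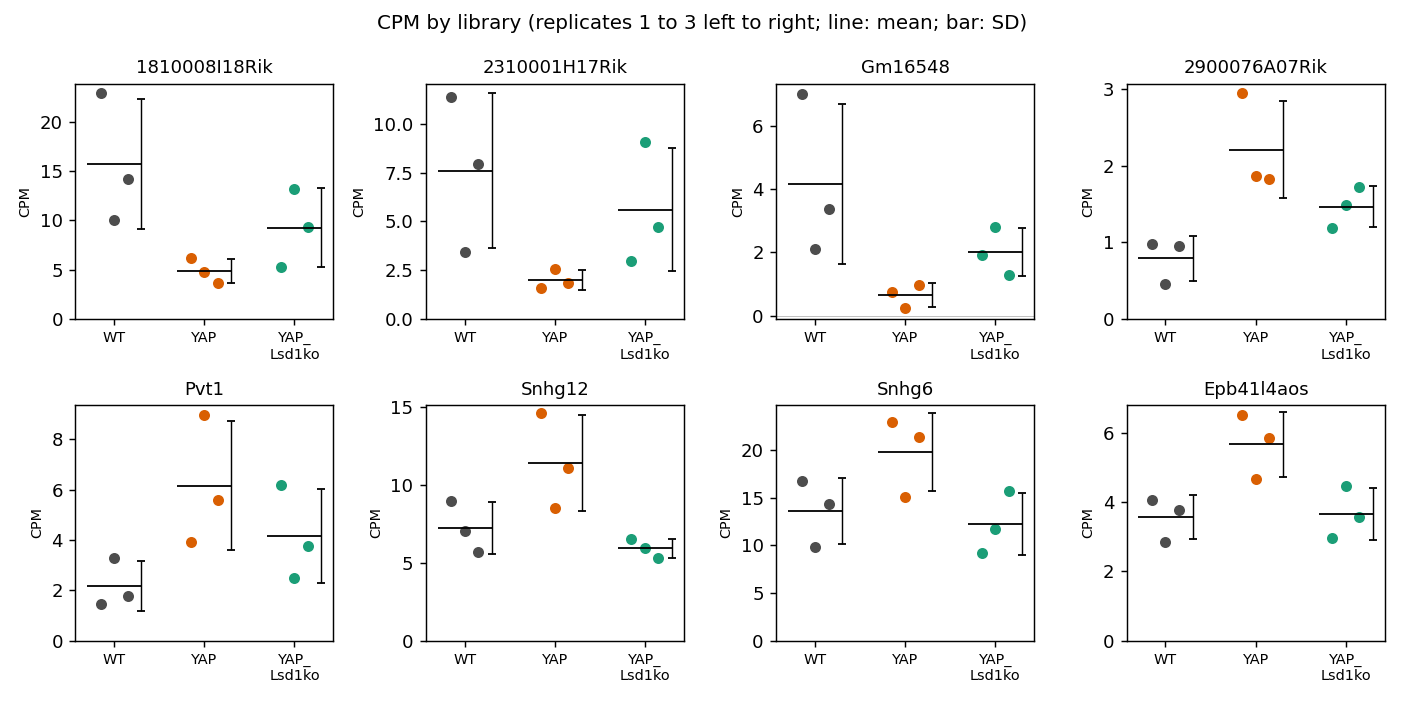
CPM by library for the 4 members that passed the test of YAP against WT and for Pvt1, Snhg12, Snhg6 and Epb41l4aos, with points for replicates 1 to 3 from left to right, a line at the group mean and a bar of 1 SD (n = 3 libraries). YAP and WT points do not overlap for the 4 members that passed, nor for Pvt1 and Epb41l4aos, and overlap for Snhg12 and Snhg6.

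Some members that did not pass had groups that did not overlap. YAP and WT did not overlap in 11 of the 22 members tested, beside 44.3% of all genes. In 5 of them YAP was higher, beside 21.5% of all genes, and in 6 lower, beside 22.8%. Pvt1 (chr15:62037986-62378096, plus strand) had 1.46, 3.30 and 1.76 CPM in WT, 3.93, 8.96 and 5.59 in YAP, against 6.17, 2.48 and 3.77 in YAP_Lsd1ko. Every YAP library was above every WT library, and YAP_Lsd1ko overlapped both (log2 fold change for YAP against WT 1.498, SE 0.46, edgeR adjusted p = 0.0528). Pvt1 passed with DESeq2 in place of edgeR (adjusted p = 0.0185) and under 5 of the other settings tried. Its neighbour Myc, the growth-promoting transcription factor whose start lies 52595 bases away, had 0.975 to 2.55 CPM over all libraries (log2 fold change -0.05, adjusted p = 0.946).

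1810058I24Rik had 22.1, 9.59 and 15.9 CPM in WT against 9.33, 9.19 and 7.90 in YAP, with no overlap (log2 fold change -0.85, SE 0.27, adjusted p = 0.0619). Gm19705 had 0.650, 1.20 and 0.135 CPM in WT against 3.56, 2.09 and 2.19 in YAP, also with no overlap (log2 fold change 1.98, SE 0.77, adjusted p = 0.103). Without WT replicate 2 its log2 fold change was 2.75. Multi-mapped reads would add most to Gm19705, at 35.9% of its reads. AW112010 overlapped, with 55.4, 70.0 and 64.2 CPM in WT and 32.2, 63.7 and 50.5 in YAP (log2 fold change -0.37, SE 0.26, adjusted p = 0.339).

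The other members tested did not pass either. The log2 fold change of 1700020I14Rik was -0.02 (SE 0.19), that of Ftx 0.08 (SE 0.28), that of 1300002E11Rik 0.17 (SE 0.24) and that of Lncpint 0.19 (SE 0.22), all with overlapping groups. Gm19619 had a log2 fold change of -1.51 with an SE of 0.74, and 1 YAP library had none of its reads, though YAP and WT did not overlap. The groups also did not overlap in Gm15408 (0.92, SE 0.46) and D930016D06Rik (-0.42, SE 0.40). They overlapped in Gm8883 (-1.01, SE 0.49), Gm20939 (-0.55, SE 0.39), 5430416N02Rik (-0.45, SE 0.25) and C730027H18Rik (0.26, SE 0.53). The value of Gm8883 was -0.39 without WT replicate 1. Over the 22 members the median log2 fold change was 0.03, beside 0.00 over all genes tested, with 11 members above 0 and 11 below. The median of the absolute values was 0.66, beside 0.36 over all genes, and the median SE was 0.40, beside 0.22.

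**Figure D3:**
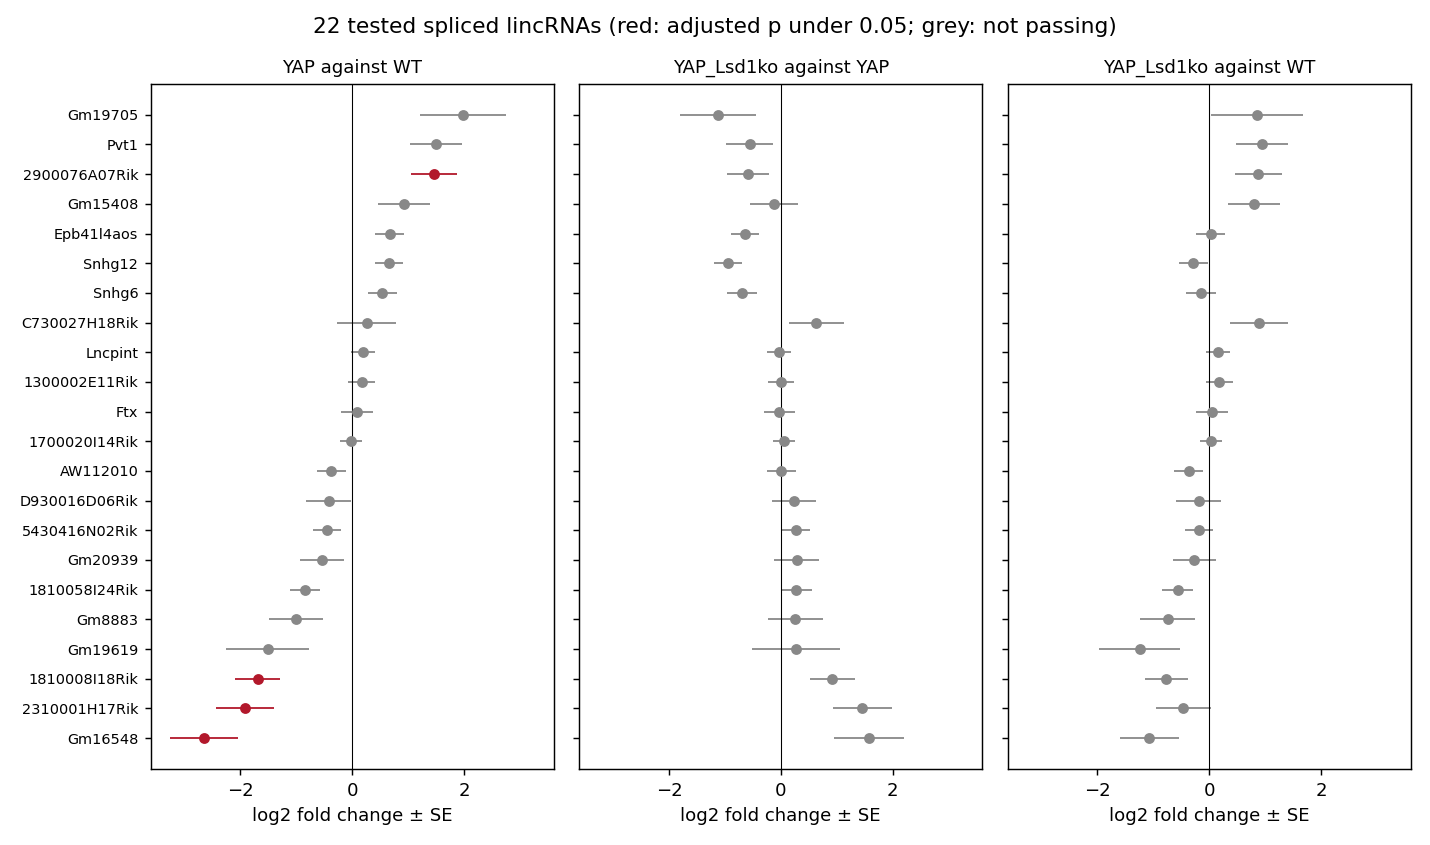
Log2 fold change with 1 SE for the 22 members tested, in 3 panels for the 3 comparisons and in the order of YAP against WT, with red for members that passed and grey for those that did not. The 4 red points are in the panel of YAP against WT, and the 3 members that fell there are above 0 in the panel of YAP_Lsd1ko against YAP, without passing.

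Comparison of YAP_Lsd1ko with YAP asks what differs once the Lsd1 knockout is added. By edgeR 0 of 22 members passed, beside 2.12% of all genes, while 6 had an unadjusted p under 0.05, beside 18.6% of all genes. The 6 were Gm16548 (log2 fold change 1.58, SE 0.63), 2310001H17Rik (1.46, SE 0.53), 1810008I18Rik (0.92, SE 0.40), Snhg12 (-0.94, SE 0.25), Snhg6 (-0.69, SE 0.26) and Epb41l4aos (-0.64, SE 0.25). DESeq2 called 1, Snhg12 (adjusted p = 0.0313), beside 6.53% of all genes. The YAP libraries are shared by this comparison and by that of YAP with WT, so a high or low YAP value enters both. YAP_Lsd1ko and YAP did not overlap in 6 of the 22 members, beside 23.9% of all genes. With the library labelled YAP_Lsd1ko replicate 2 left out, 0 members passed as well, beside 1.46% of all genes. The log2 fold changes were then 1.28 for Gm16548, 0.94 for 2310001H17Rik, 0.58 for 1810008I18Rik and -0.96 for Snhg12. With YAP_Lsd1ko replicate 1 left out instead, 0 members passed, beside 7.65% of all genes. The log2 fold change of 1810008I18Rik was then 1.21 (edgeR adjusted p = 0.0849).

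In YAP_Lsd1ko against WT 0 of 22 members passed by edgeR, beside 2.05% of all genes, and 0 had an unadjusted p under 0.05, beside 15.2%. DESeq2 called 0, beside 5.48% of all genes. The groups did not overlap in 2 members, beside 17.6% of all genes: 2900076A07Rik, at 1.47 ± 0.268 (SD, n = 3) against 0.790 ± 0.296 CPM in WT, and Gm19619, at 1.14 ± 0.291 against 2.76 ± 1.27. The log2 fold changes of the 3 members that fell in YAP were -1.07 (SE 0.53) for Gm16548, -0.77 (SE 0.39) for 1810008I18Rik and -0.46 (SE 0.49) for 2310001H17Rik.

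Libraries within a group differed as well. WT replicate 1 was the highest of the WT libraries in 15 of the 23 members, and WT replicate 2 the lowest in 14. The library labelled YAP_Lsd1ko replicate 2 was the highest of its group in 11, among them 1810008I18Rik, 2310001H17Rik and Gm16548. Marker sums of other cells also differed between these libraries. The summed level of 10 Kupffer cell (liver macrophage) markers, all of them read, was 529, 1101 and 847 CPM in WT, 2372 to 2785 in YAP, against 2443, 518 and 1643 in YAP_Lsd1ko. That of 7 cholangiocyte (bile duct cell) markers was 80.8 to 137, 1085 to 1344 and, in YAP_Lsd1ko, 710, 196 and 541. A sum follows its most-read genes: over the 5 cholangiocyte markers tested, the median log2 fold change in YAP against WT was 1.03. Of these 5, 2 passed as higher (edgeR), beside 7.44% of all genes. WT replicate 1 and the library labelled YAP_Lsd1ko replicate 2 were the lowest of their groups in both sums. The erythroid sum was 246, 26.8 and 124 CPM in WT, 19.7 to 22.96 in YAP, against 53.6, 178 and 101 in YAP_Lsd1ko. It rests on Alas2 and Sptb, as the listed globin genes Hbb-bs, Hbb-bt and Hba-a1 had no such reads. Of Alas2 and Sptb, 1 passed as higher and 1 as lower in YAP against WT (edgeR), so the sum does not describe both genes. The WT and the YAP_Lsd1ko libraries stood in the same order in this sum as in 1810008I18Rik and 2310001H17Rik, and for Gm16548 this held for the WT libraries. That order of both groups was also seen in Gm8883, 5430416N02Rik, C730027H18Rik, Epb41l4aos and Gm15408. In Epb41l4aos and Gm15408 every YAP library was above every WT library, so the order was not particular to members that fell. The part of other cell types in the lincRNA levels was not tested, and in whole liver fewer cells of a type and less RNA per cell cannot be told apart.

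Meg3 (chr12:109541001-109571726, plus strand) varied most between libraries of one group. It had 0, 105 and 66 reads in WT replicates 1 to 3, 0, 7 and 0 in YAP, against 6, 2 and 2 in YAP_Lsd1ko, or 15.7 and 8.92 CPM in the WT libraries that had any. The 0 reads of WT replicate 1 allow a level of up to 0.488 CPM, which is 3 reads, for counting error only. WT replicate 1 was thus as low as the YAP libraries, and Meg3 reached the threshold of 100 reads through the other WT libraries. It did not pass the filter on low counts and was not tested. Without that filter its log2 fold change in YAP against WT was -4.80 (edgeR adjusted p = 0.0922). As the WT libraries brought it past the threshold of 100 reads, this value is a description only. The reads of Meg3 came from 9 junctions spread over the gene, so its values do not rest on a single junction.

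Rian and Mirg, which follow Meg3 in the same imprinted cluster and are not members, also differed within WT. Rian, a snoRNA host, had 1.63, 81.2 and 50.3 CPM in WT, 0.368, 5.23 and 2.43 in YAP, against 4.74, 0.496 and 2.80 in YAP_Lsd1ko (log2 fold change for YAP against WT -4.03, SE 1.21, adjusted p = 0.0502). Mirg had 1, 5 and 12 reads in WT, or 0.163, 0.749 and 1.62 CPM, and at most 0.365 CPM in the other libraries. WT replicate 1 was the lowest WT library in all 3 RNAs, while the highest was replicate 2 in Meg3 and Rian and replicate 3 in Mirg.

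**Figure D4:**
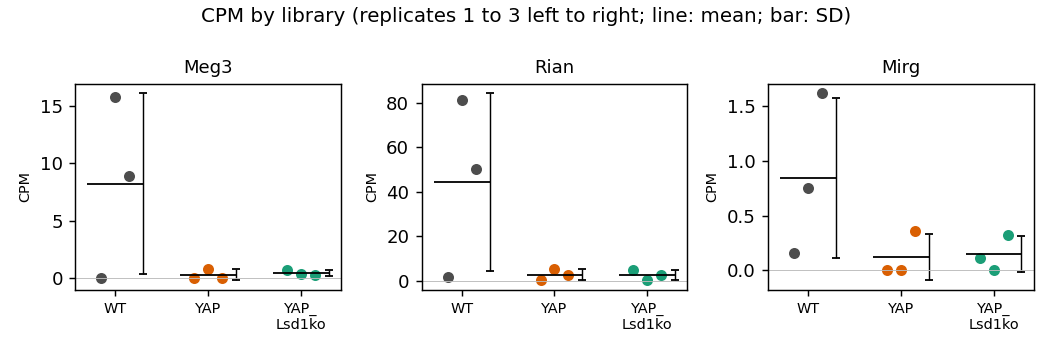
CPM by library for Meg3, Rian and Mirg, with points for replicates 1 to 3 from left to right, a line at the group mean and a bar of 1 SD (n = 3 libraries). WT replicates 2 and 3 stand above the rest in Meg3 and Rian, and WT replicate 1 stands with the YAP and YAP_Lsd1ko libraries.

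Of a list of 23 lncRNAs known from liver or liver cancer work, Meg3, Pvt1 and Lncpint were members. Neat1 and Malat1, which are mostly unspliced, had no read on the junctions used. Lncpint was even, at 4.55, 4.94 and 3.92 CPM in WT, 5.40, 4.19 and 5.72 in YAP, against 4.74, 5.62 and 4.63 in YAP_Lsd1ko, with all groups overlapping. Of the 7 listed RNAs tested, 1 passed, beside 17.4% of all genes, the antisense RNA Hnf4aos, which fell in YAP against WT (log2 fold change -5.12, edgeR adjusted p = 0.00431). Hnf4aos had 86 reads in all, with 30, 11 and 26 in WT, 0, 0 and 2 in YAP, against 4, 4 and 9 in YAP_Lsd1ko. On so few YAP reads the size of its fall is uncertain. The median of the 7 was 0.19, beside 0.00 over all genes tested. Trp53cor1 and Gm14005 were read below the threshold, with 15 and 45 reads.

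The snoRNA hosts among the members were Snhg6, Snhg12 and Epb41l4aos. Host RNAs of this class carry snoRNAs, guides of ribosomal RNA modification, in their introns, and splicing releases them. Snhg12 (chr4:132308623-132311024, plus strand) had 8.94, 7.04 and 5.67 CPM in WT, 14.6, 8.49 and 11.1 in YAP, against 6.52, 5.95 and 5.28 in YAP_Lsd1ko. The lowest YAP library was just below the highest WT library and above all YAP_Lsd1ko libraries (YAP against WT log2 fold change 0.66, adjusted p = 0.0954, YAP_Lsd1ko against YAP adjusted p = 0.0974). Snhg6 had 16.7, 9.89 and 14.3 CPM in WT, 22.96, 15.1 and 21.4 in YAP, against 9.25, 11.7 and 15.7 in YAP_Lsd1ko. Epb41l4aos had 4.06, 2.85 and 3.78 CPM in WT, 6.51, 4.65 and 5.84 in YAP, against 2.96, 4.47 and 3.55 in YAP_Lsd1ko, where YAP overlapped neither group.

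Of 20 listed snoRNA hosts, 12 were tested, and 2 rose in YAP against WT, beside 7.44% of all genes: Snhg1 (log2 fold change 0.95, adjusted p = 0.0108) and Snhg5 (1.24, adjusted p = 0.0180). The median of the 12 was 0.71 and 9 were above 0, beside a median of 0.00 over all genes. Rian, named above as a snoRNA host, is not among these 12 and went the other way (log2 fold change -4.03, edgeR adjusted p = 0.0502). Gas5, the host with most reads, had 166, 123 and 150 CPM in WT and 323, 186 and 228 in YAP (log2 fold change 0.75, adjusted p = 0.0540). In YAP_Lsd1ko against YAP 0 of the 12 passed by edgeR, 2 were above 0 and the median was -0.68, and in YAP_Lsd1ko against WT 0 passed and the median was 0.09. These comparisons share the YAP or the WT libraries.

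Scaling by library size alone moves the median log2 fold change of all genes in YAP against WT from 0.00 to 0.31. Under it, 8 members passed, 5 higher and 3 lower, in place of 1 higher and 3 lower, while the share of all genes passing went from 17.4% to 23.4%. The 5 were 2900076A07Rik, Pvt1, Snhg6, Snhg12 and Epb41l4aos, so whether the snoRNA hosts among the members pass depends on the scaling.

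Ftx, the member from the X-inactivation centre, had 1.95 to 2.92 CPM in all libraries. Xist, the RNA that coats the inactive X chromosome of female cells, had 2 reads over the 9 libraries, and 4 Y-linked genes together had 324 to 469 CPM in each. Jpx had 40 reads in all and was below the threshold.

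Each member was set beside the protein-coding gene with the nearest start. The median distance between starts was 25294 bases, 11 of the 23 nearest genes were on the opposite strand, and 13 were tested. Gm16548 starts 379 bases inside F5, on the opposite strand, so the genes overlap by 380 bases. 1300002E11Rik starts 28 bases from the start of Map3k13, a kinase gene, on the same strand, and the genes overlap by 14695 bases. Map3k13 had a log2 fold change of -0.21 in YAP against WT (adjusted p = 0.531), beside 0.17 for the lincRNA. F5 encodes coagulation factor V, a liver-made clotting factor. F5 had 813, 622 and 675 CPM in WT, 449, 274 and 366 in YAP, against 426, 548 and 466 in YAP_Lsd1ko, and fell in YAP against WT (log2 fold change -0.96, SE 0.21, adjusted p = 0.0163). YAP replicate 2 was the lowest library for both genes, for Gm16548 on 2 reads. Each junction is assigned to a strand by its splice-site bases, so reads of Gm16548 and F5 are told apart.

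For the other members that passed, the neighbour did not pass or was hardly read. Pcsk6, a protease gene whose start is 58623 bases from that of 1810008I18Rik, had a log2 fold change of -0.07 (adjusted p = 0.867). Cd69, a leukocyte activation marker next to 2310001H17Rik, had 34 reads in all, and BC048679, next to 2900076A07Rik, had 0, and neither was tested. Of the 13 nearest genes tested, 3 passed in YAP against WT, beside 17.4% of all genes. Besides F5, the others are named here after their values were seen. These were Bicc1 next to C730027H18Rik (log2 fold change 3.40, adjusted p = 0.00434) and Ms4a8a next to AW112010 (2.81, adjusted p = 0.00507), beside lincRNA values of 0.26 and -0.37. Over the 13 pairs Pearson's r between the log2 fold changes was 0.26 and Spearman's rho 0.31, with the same sign in 6 of 13, and all pairs come from the same libraries.

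**Figure D5:**
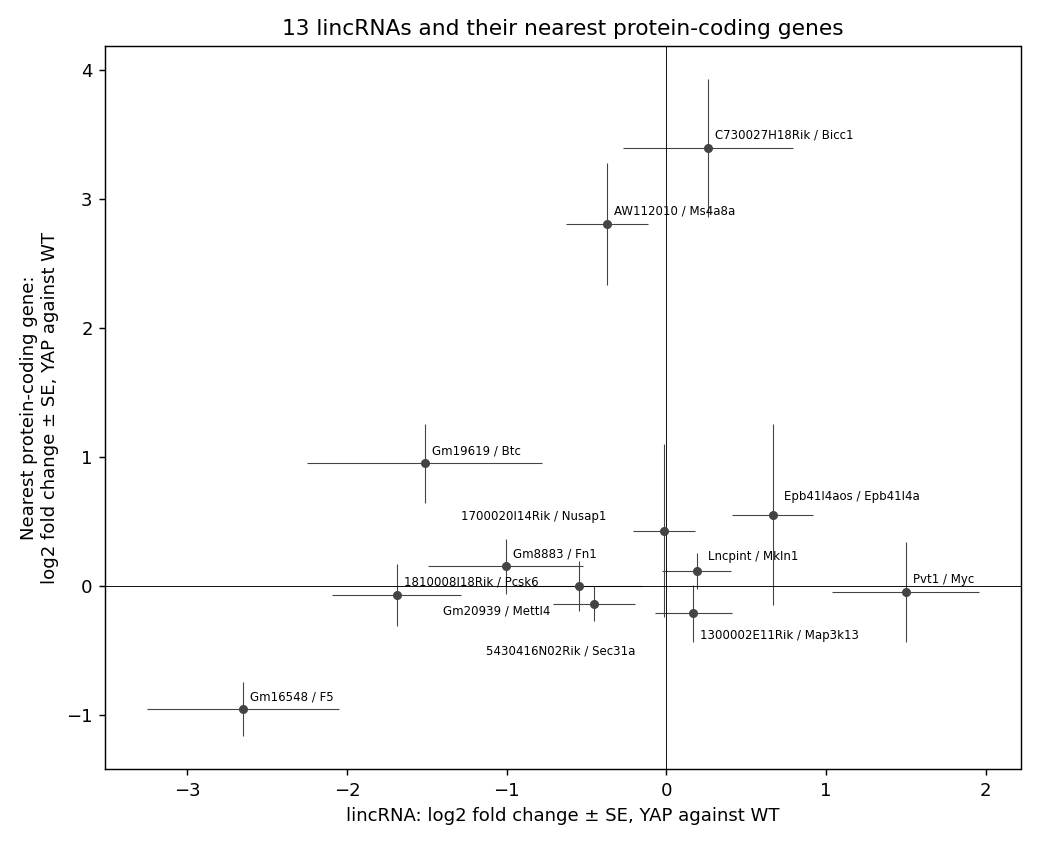
Log2 fold change in YAP against WT of 13 members (horizontal) and of the protein-coding gene with the nearest start (vertical), with 1 SE on each axis and the pair named beside each point. Gm16548 and F5 are both below 0, while Bicc1 and Ms4a8a are high beside lincRNAs near 0.

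Promoter windows from 250 bases before to 50 bases after the start were found in RefSeq for 16 of the 23 members, 21 windows in all, and not for Snhg6, Gm16548, 1700020I14Rik, D930016D06Rik, C730027H18Rik, Pvt1 and Epb41l4aos. The letters GGAATG, the core that TEAD factors, the DNA-binding partners of YAP, recognise, were in 3 of the 21 windows on either strand, of 1810058I24Rik, 2310001H17Rik and Gm19705, beside 14.7% of all 32851 windows. The letters TGANTCA of the AP-1 site were in 2, of Gm8883 and of another start of 1810058I24Rik, beside 7.81% of all windows. The window of 2310001H17Rik that holds the TEAD letters is shown, since the gene fell in YAP against WT (GRCm38.p6, chr6:129237996-129238295, minus strand), with the match, which is on the other strand, in capitals 104 bases before the start.
2310001H17Rik: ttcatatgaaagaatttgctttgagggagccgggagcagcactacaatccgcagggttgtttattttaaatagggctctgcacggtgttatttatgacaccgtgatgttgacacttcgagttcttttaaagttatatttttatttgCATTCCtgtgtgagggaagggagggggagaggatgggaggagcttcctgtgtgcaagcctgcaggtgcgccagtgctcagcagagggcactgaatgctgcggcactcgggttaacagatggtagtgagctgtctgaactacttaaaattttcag
A match describes letters only, and binding was not measured.

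Use of alternative junctions within a gene was tested in the 8 members with enough reads on at least 2 junctions. In YAP against WT 0 of 8 passed (edgeR's diffSpliceDGE, Simes method, over 7791 genes, of which 9 passed), the smallest unadjusted p was 0.225, and 0 were under 0.05. In the other comparisons 0 of 8 passed as well, beside 3 and 4 genes of 7791, with 0 members under an unadjusted p of 0.05. No other tool was run for junction use. Among members with too few reads for it, the junction chr7:81529259-81529346 of 2900076A07Rik had 0 reads in each WT library, 6, 7 and 5 in YAP, against 4, 3 and 3 in YAP_Lsd1ko. All 16 reads of this gene in WT were on its other junctions, and this junction was named after its values were seen and was not tested.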

How the data were processed

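RNA from mouse liver was depleted of ribosomal RNA and made into 9 stranded libraries, per the labels' protocols. The submitters' processing notes name bcl2fastq, FastQC, STAR, featureCounts, edgeR and mm10, with no versions, and the sources used here do not name the annotation given to STAR. The deposited values are counts, not normalized, of uniquely mapped and multi-mapped reads per splice junction and library.

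Uniquely mapped reads on junctions marked as annotated and matching introns of 1 GENCODE M21 gene only were summed per gene. Genes were filtered (filterByExpr), scaled (TMM) and tested in 1 model of all 9 libraries by edgeR 4.0.16 (R 4.3.3, robust quasi-likelihood, limma 3.58.1 loaded), with Benjamini-Hochberg adjustment over 10897 genes and a threshold of 0.05. SE is the absolute log2 fold change divided by the square root of F. Junction use was tested with diffSpliceDGE. The code was checked on simulated counts. No replicate block was used. Alternatives were DESeq2 1.42.0, other filters and scalings, other junction sets, the compared groups alone, a replicate block and single libraries left out.

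Members and lists were chosen with earlier results of these data known. The text names the 15 members with most reads, members that passed or stand on a list, the 3 genes on each side of the threshold, Kdm1a, Yap1, and the neighbours of members that passed. Results of the lists are given here or in the report. A cholangiocyte marker of the fixed list is not reported here. Of 8 imprinted RNAs 2 were tested and 0 passed, of 14 microRNA hosts 3 and 0, of 5 p53 or stress RNAs 4 and 0, of 5 immune RNAs 0, and of 4 X-inactivation RNAs 1 and 0 (edgeR, YAP against WT). Of 7 YAP target names 5 were tested and 5 were higher. In YAP_Lsd1ko against YAP 0 genes of these lists passed, and in YAP_Lsd1ko against WT only 4 of the 5 YAP targets, all higher. Of markers tested in YAP against WT, passing genes were 4 of 10 Kupffer (higher), 2 of 5 cholangiocyte (higher), 3 of 10 hepatocyte (1 higher), 1 of 9 stellate (lower), 3 of 9 endothelial (2 higher), 1 of 5 lymphocyte (higher), 2 of 3 neutrophil (higher) and 2 of 2 erythroid (1 higher), beside 17.4% of all genes. In YAP_Lsd1ko against YAP 1 hepatocyte and 1 stellate marker passed (higher), and in YAP_Lsd1ko against WT 1 hepatocyte (lower) and 1 cholangiocyte marker (higher). Stellate cell markers (9 of 9 tested) summed to 948 to 1760 CPM in WT, 559 to 1128 in YAP and 738 to 1120 in YAP_Lsd1ko, endothelial markers (9 of 9) to 1060 to 1083, 961 to 1133 and 976 to 1004, lymphocyte markers (5 of 9) to 6.48 to 10.2, 9.33 to 18.7 and 4.30 to 20.4, neutrophil markers (3 of 5, Ly6g at 0) to 1.79 to 6.89, 13.7 to 17.5 and 2.48 to 13.6, and erythroid markers (2 of 5, with Hbb-bs, Hbb-bt and Hba-a1 without such reads) to 26.8 to 246, 19.7 to 22.96 and 53.6 to 178.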

Additional observations from a re-analysis of the deposited data

Results flagged for a closer look

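Some lincRNA junctions of GENCODE M21 are in the deposited tables but are not marked there as annotated, and the comparisons above leave them out. With these junctions counted beside the marked ones, 11 further lincRNA genes reached 100 reads over the 9 libraries. Total reads were 556 for Gm37494, 555 for Gm27216, 384 for Gm48633, 348 for 9030622O22Rik, 301 for Gm39469, 240 for Gm30262, 232 for 4732465J04Rik, 200 for Gm32461, 117 for Gm40438, 116 for Gm31583 and 110 for 1700001L05Rik. All of these reads were on unmarked junctions except 59 of 1700001L05Rik. Of all lincRNA reads, 62.3% were on marked junctions.

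9030622O22Rik, also named Falcor, lies next to the liver transcription factor gene Foxa2. It had 10.4, 2.40 and 5.81 CPM in WT, 4.30, 3.49 and 5.35 in YAP, against 3.79, 6.12 and 5.06 in YAP_Lsd1ko, with all groups overlapping (log2 fold change for YAP against WT -0.49, edgeR adjusted p = 0.472).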

How the results depend on the processing

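In YAP against WT the count of 4 members stayed within 1.5 times with the compared groups alone (6), DESeq2 (6), the best-read junction only (4), unmarked junctions added (4, chosen after seeing the data), multi-mapped reads added (5) and no filter (4). The count was 2 of 12 members tested with at least 30 reads on average (beside 20.1% of all genes). It was 8 with scaling by library size alone (beside 23.4%), and 0 without every replicate 3, where 0.0% of all genes passed. Leaving out single libraries gave 0 to 5, beside 6.74% to 15.4% of all genes. In YAP_Lsd1ko against YAP the count was 0 under every setting run except DESeq2, which gave 1, beside 6.53% of all genes. In YAP_Lsd1ko against WT it was 0 under every setting run except without WT replicate 1, which gave 1, Meg3 (range 0 to 1 over single libraries left out). Fewer samples or fewer genes tested enter the filters and left-out libraries by construction, and the cause of the other changes was not tested. Junction use gave 0 of 8 or 9 members in each setting run. Replicate numbers did not pair libraries: deviations of same-numbered libraries from their group means correlated at -0.66 to 0.34, and not every library correlated best with its own number. With the number as a replicate block 0 members passed in YAP against WT, beside 9.42% of all genes, and the counts of the other comparisons stayed at 0. Of the values of single members under alternatives, 373 kept direction and side of the threshold, 29 lost significance, 14 gained it and 0 turned. The 373 include values that did not pass in the main fit. The call was lost under 6 of 16 alternatives for 1810008I18Rik and 8 of 16 for 2310001H17Rik. It was lost under 6 of 15 for Gm16548 and 9 of 14 for 2900076A07Rik. The adjusted p over the alternatives ran from 0.000975 to 0.245 for Gm16548, 0.00113 to 0.352 for 1810008I18Rik, 0.00504 to 0.405 for 2310001H17Rik and 0.0137 to 0.339 for 2900076A07Rik. Members have 106 to 3710 reads, and the SE in YAP against WT ran from 0.19 to 0.77 (median 0.40). Differences within a member's own error were not detectable with these libraries.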

Other observations

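With the unmarked junctions added, in a setting chosen after seeing the data, 3 of the 11 further lincRNAs fell in YAP against WT, beside 9.95% of 11040 genes passing as lower (edgeR). The 11 were chosen by reads summed over all groups, so this count is a description only. Gm30262 had 7.64, 3.59 and 4.86 CPM in WT, 0.368, 0.814 and 0.851 in YAP, against 4.03, 5.46 and 5.28 in YAP_Lsd1ko. All YAP libraries were below all others. It fell in YAP against WT (log2 fold change -2.94, SE 0.41, adjusted p = 0.00235) and rose in YAP_Lsd1ko against YAP (2.82, SE 0.40, adjusted p = 0.0133), where 1.81% of genes passed as higher. These comparisons share the YAP libraries.

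Gm31583 had 7.15, 1.05 and 4.05 CPM in WT, 0.123, 0.116 and 0.243 in YAP, against 0, 1.32 and 2.48 in YAP_Lsd1ko (YAP against WT log2 fold change -4.53, SE 1.21, adjusted p = 0.0338). Its YAP levels are below that of 3 reads, which is 0.349 to 0.368 CPM in the YAP libraries, so the size of its fall is uncertain. 1700001L05Rik had 3.41, 2.25 and 2.84 CPM in WT and 0.859, 0.814 and 0.730 in YAP (log2 fold change -1.80, SE 0.36, adjusted p = 0.0107). Neither passed in YAP_Lsd1ko against YAP. The highest 2 of the 11 in reads, Gm37494 and Gm27216, did not pass in YAP against WT (log2 fold changes -0.12 and -1.18). Leaving out single libraries was not run for these 11.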
